A study of Homo sapiens with 8 samples.

Results

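For each gene it was asked whether the JAK2 inhibitor LY2784544 and the telomerase inhibitor GRN163L, given together to HEL cells, changed the transcript by the sum of what each did alone. The measure is the departure from additivity: the log2 signal with the combination, minus that with LY2784544, minus that with GRN163L, plus that of the control. It was computed within each experiment for every probe set annotated to exactly 1 gene, 19181 of the 33297 probe sets on the array. These stood for 17958 genes, each represented by its brightest probe set, and 12570 genes passed a filter on dim signals (mean log2 signal of at least 4.37). A negative value means that the combination lay below the additive value, and a positive value that it lay above it. On the log2 scale, additive effects are fold changes that multiply.

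HEL is a human erythroleukaemia line with erythroid and megakaryocytic features whose growth depends on an activated JAK2. Control cells received the solvent DMSO, 1 group received 0.5 µM LY2784544, 1 group 20 µM GRN163L and 1 group both agents, all for 48 h. The labels give no separate doses for the combination, so the measure takes them to be those of the agents alone. Every group holds 2 arrays, 1 from each of 2 experiments, so each experiment gives 1 departure per gene. The experiments share no array. In the control, most markers of the erythroid and megakaryocytic lineages were bright (GATA1 at 10.70 and 10.29, ITGA2B at 11.16 and 11.26, log2 signal), while PF4 of megakaryocytes was at 6.11 and 6.27. CD3E of T cells, MS4A1 of B cells and CD14 of monocytes lay between 3.24 and 3.65. CD3D of T cells and CSF1R of monocytes lay between 4.25 and 4.66. Because whole cultures were measured, fewer cells of a kind and less RNA per cell cannot be told apart.

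JAK2 is a tyrosine kinase that passes signals from cytokine receptors to STAT transcription factors, and with them to the RAS-MAPK and PI3K pathways. LY2784544 blocks its ATP site. GRN163L is a lipid-tagged oligonucleotide that pairs with the RNA template of telomerase, the enzyme that extends chromosome ends. A departure from additivity can be a response that is absent once the other agent is present, a response that goes no further with both, or one seen with both alone.

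No gene departed from additivity at a Benjamini-Hochberg adjusted p below 0.05: the count by limma was 0 of 12570 (0.0%), and the smallest adjusted p was 0.120. At an unadjusted p below 0.05 there were 464 genes (3.69%), 308 below and 156 above the additive value, where 628.5 would be reached if no gene departed. On arrays set to 1 median the split of unadjusted calls was 206 below and 255 above. A limma fit with the experiment as a block gave 484 below and 258 above at an unadjusted p below 0.05. A limma fit of the 2 departures of each gene against 0 gave 708 below and 412 above. Whether the count lies under or over 628.5 therefore depends on the model. The median standard error of a departure was 0.27, so that only large departures could pass with 2 arrays a group. Leaving out the second LY2784544 array gave 8 calls, all below the additive value: CDC42EP1, FAM83A, FRY, HLA-DRA, LBH, MAS1L, PRG2 and SLC37A2. Leaving out any of the other arrays gave 0. The p-values rest on the scatter of these 8 arrays alone.

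Both experiments can be set against each other because they share no array. Over the 12570 genes the departures of experiments 1 and 2 correlated with r = 0.30, as a description across genes that are not independent, and 4032 genes (32.1%) were below the additive value in both while 2936 (23.4%) were above it in both. The correlation was 0.07 over the 5388 genes under the filter. A departure of at least 1, which is 2-fold, with the same sign in both experiments was found for 79 genes (0.628%), 60 below and 19 above, and with opposite signs for 2 genes. By the size of the smaller of their 2 departures, PPDPFL, RAB3B, MT1X, TNFRSF9, TRERF1 and MAL lay on this limit at 1.0. ANXA1, THBS1 and SNORD14E were among the genes just outside at 0.99.

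**Figure D1:**
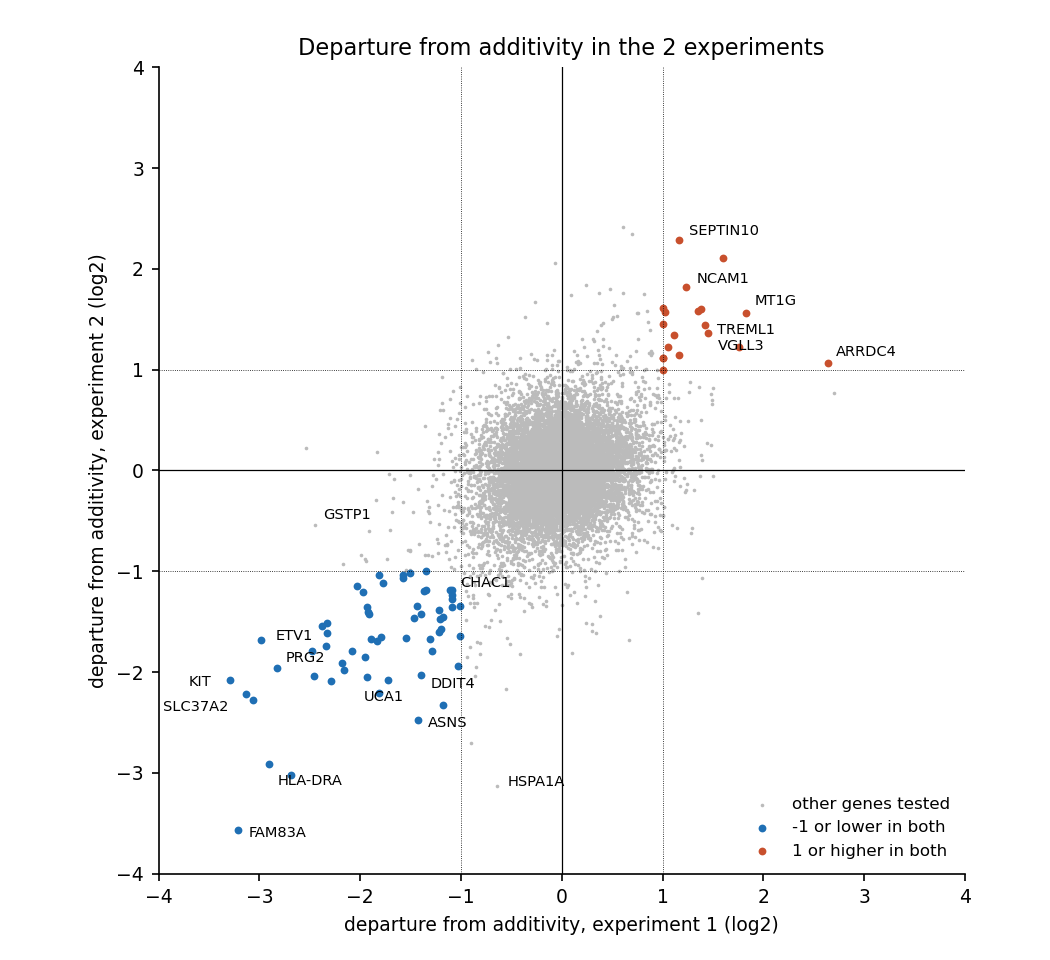
Departure from additivity (log2) of each of the 12570 genes in experiment 1 (horizontal) and experiment 2 (vertical). Blue points are the 60 genes at -1 or lower in both experiments and orange points the 19 genes at 1 or higher in both. The blue points reach past -3 on both axes (FAM83A), while the orange points end below 3.

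The largest class of genes below the additive value was higher with LY2784544 alone and less high, or lower, with the combination. Over the 60 genes below the additive value, the median change against control was 0.98 with LY2784544, 0.20 with GRN163L and -0.43 with the combination (the measure itself chose these genes, so these values describe them and test nothing). With a limit of 0.5 on the mean change, 24 of the 60 were higher with LY2784544 alone and less high or lower with both agents, and 14 were higher with each agent alone and less high or lower with both. For these 14 the combination was compared with the higher single agent only, and for some, such as CHAC1, it lay above GRN163L alone. Another 9 were near control with each agent and lower with both, and 6 were lower with an agent and lower still with both. The filter used the mean of all arrays, so a gene could pass it through the group where it was high. IL23R, among the 24, had means of 4.29 in control, 4.12 with GRN163L and 3.875 with both, against 5.455 with LY2784544. RBMY2EP, among the 14, had means of 3.385 in control and 4.135 with GRN163L, against 6.155 with LY2784544. How many of the 24 and the 14 passed in this way was not counted. The combination lay below LY2784544 alone in both experiments for 56 of the 60. Counted on the linear signal in place of log2, the departure kept its sign in both experiments for 59 of the 60 and for all 19 genes above.

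Against control, limma called 160 genes with LY2784544 (1.27%), 0 with GRN163L (0.0%; 595 at an unadjusted p below 0.05) and 436 with the combination (3.47%). By direction these were 49 higher (0.39%) and 111 lower (0.883%) with LY2784544, and 95 higher (0.756%) and 341 lower (2.71%) with the combination. It called 39 genes for the combination against LY2784544 (0.31%) and 68 for the combination against GRN163L (0.541%). These comparisons share arrays with each other and with the departure, so they are given side by side as the parts of which each departure is made.

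HLA-DRA, the alpha chain of the antigen-presenting molecule HLA-DR, had the departure with the smallest p. It was at 7.50 and 7.35 in control (experiments 1 and 2), 8.72 and 8.52 under LY2784544, 7.45 and 7.97 under GRN163L, and 5.77 and 6.23 under both agents. It was highest on both LY2784544 arrays and lowest on both combination arrays, and neither pair overlapped any other group. It rose with LY2784544 (log2 change 1.20, limma adjusted p = 0.0460) and fell with the combination against control (-1.43, adjusted p = 0.0185). The departure was -2.90 in experiment 1 and -2.91 in experiment 2 (mean -2.905, SE 0.32, limma adjusted p = 0.120). All 3 probe sets of HLA-DRA gave a negative departure, from -2.46 to -2.905.

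Other parts of the class II pathway lay on the same side with smaller sizes. Class II molecules display peptides cut in endosomes: CD74 is the chaperone that guards the empty groove, IFI30 reduces disulphide bonds of antigens, and CTSS is the protease that trims CD74. IFI30 was at 6.53 and 6.90 in control, 7.21 and 7.20 under LY2784544, 6.14 and 6.22 under GRN163L, and 4.89 and 5.16 under both agents. Its combination arrays lay below all others, the fall against control was -1.69 (limma adjusted p = 0.00465), and the departures were -1.93 and -1.36. HLA-DPB1 departed by -0.91 and -1.32, CD74 by -0.79 and -1.01, HLA-DRB3 by -0.67 and -0.94, and CTSS by -0.63 and -0.64. Of 12 class II genes tested, 10 were below the additive value in both experiments and 1, HLA-DQA1 (1.16 and 0.28), above it, against 32.1% and 23.4% of all genes, and 5 fell with the combination against control (all genes 2.71%). This list was drawn up after the values of HLA-DRA and IFI30 had been seen. The probes of HLA genes can share sequence between paralogs and alleles, so single members are uncertain.

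Several genes with other roles rose with LY2784544 alone and lay near control with both agents. SLC37A2, a sugar phosphate transporter of the endoplasmic reticulum, was at 6.73 and 6.57 in control, 9.40 and 8.76 under LY2784544, 6.33 and 6.56 under GRN163L, and 5.87 and 6.53 under both agents. Its LY2784544 arrays stood more than 2 log2 units above every other array, with a rise of 2.43 (limma adjusted p = 0.00783) and departures of -3.13 and -2.22. UCA1, a long noncoding RNA, was at 4.63 and 4.70 in control, 6.57 and 6.77 under LY2784544, 4.13 and 4.37 under GRN163L, and 4.35 and 4.36 under both agents. The rise of UCA1 was 2.01 (adjusted p = 0.00320), and with the combination it lay slightly below control in both experiments (departures -1.72 and -2.08). Its GRN163L and combination arrays lay near or under the filter level of 4.37, where small differences are uncertain.

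HTRA3, a secreted serine protease, followed the same course: 5.02 and 5.35 in control, 7.24 and 7.51 under LY2784544, 4.91 and 4.62 under GRN163L, and 5.18 and 4.93 under both agents. The 6 arrays without LY2784544 alone overlapped, and both LY2784544 arrays lay apart (rise 2.19, limma adjusted p = 0.00371; departures -1.95 and -1.85). CDC42EP1, an effector of the CDC42 GTPase, rose by 1.95 with LY2784544 (adjusted p = 0.0112) and was at 4.88 and 4.53 with the combination against 4.70 and 4.71 in control. JUP, the junction protein plakoglobin, rose by 1.78 (adjusted p = 0.0112) and was at 9.24 and 9.10 with the combination against 9.26 and 8.95 in control. RYR2, a calcium release channel, rose by 1.47 (adjusted p = 0.00865), and LBH, a transcription cofactor, by 1.63 (adjusted p = 0.0263). Against LY2784544 alone the combination was lower for all 6 of SLC37A2, UCA1, HTRA3, CDC42EP1, JUP and LBH (limma adjusted p from 0.00291 to 0.0457).

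FAM83A, a scaffold protein that binds RAF kinases, had the largest mean departure of the genes tested, -3.39 (SE 0.54, limma adjusted p = 0.226). It was at 7.04 and 6.43 in control, 8.68 and 7.52 under LY2784544, 7.40 and 7.93 under GRN163L, and 5.83 and 5.45 under both agents. Within each experiment both agents alone lay above control and the combination below it, and no change against control passed the test. ALDH2, the mitochondrial aldehyde dehydrogenase, had the same order of arms and departed by -2.29 and -2.09. TMEM154, a membrane protein, departed by -3.06 and -2.28, and its combination arrays lay on both sides of control.

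**Figure D2:**
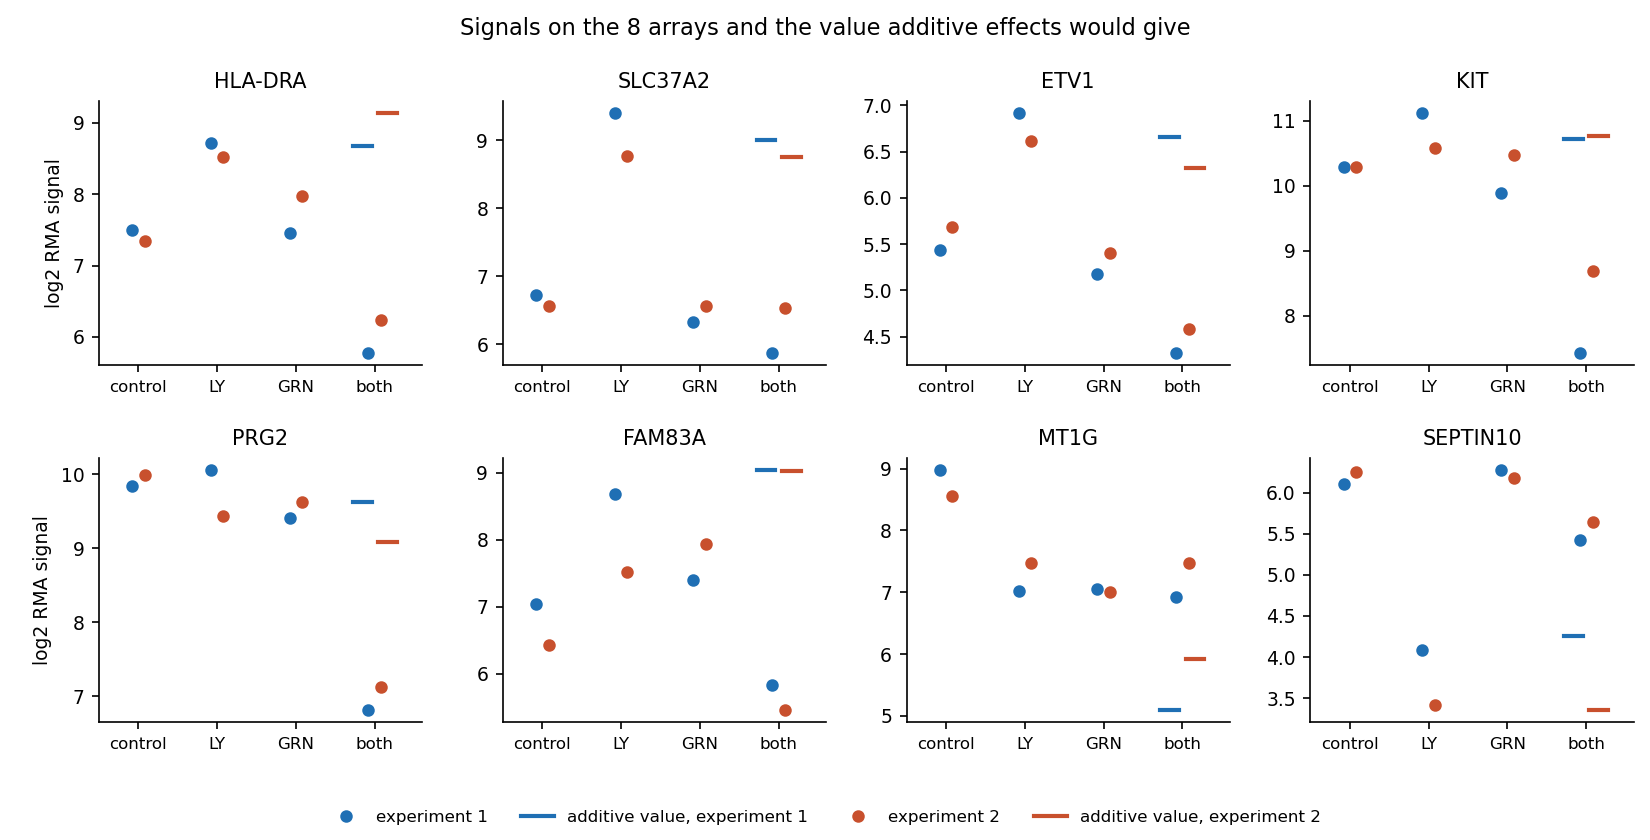
Log2 RMA signals of 8 genes on the 8 arrays, with 1 point for each array (blue for experiment 1, orange for experiment 2) in control, LY2784544 (LY), GRN163L (GRN) and the combination (both). The short bars mark the additive value, LY2784544 plus GRN163L minus control, of each experiment. For HLA-DRA, SLC37A2, ETV1, KIT, PRG2 and FAM83A both combination points lie below their bars, and for MT1G and SEPTIN10 both lie above. The vertical axes differ between panels and do not start at 0.

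The ETS factors of the PEA3 group, ETV1, ETV4 and ETV5, are transcription factors that RAS-MAPK signalling induces. ETV1 was at 5.44 and 5.69 in control, 6.92 and 6.61 under LY2784544, 5.18 and 5.40 under GRN163L, and 4.32 and 4.58 under both agents. LY2784544 arrays lay above and combination arrays below all others, with a rise of 1.20 (limma adjusted p = 0.0237), a fall of -1.12 with the combination (adjusted p = 0.0219) and departures of -2.34 and -1.74. ETV4 was at 8.16 and 8.55 in control, 8.26 and 7.78 under LY2784544, 7.32 and 7.11 under GRN163L, and 5.50 and 4.94 under both agents. It fell by 3.14 with both agents (adjusted p = 0.00119), and its departures were -1.92 and -1.40. On the linear signal the departure of ETV4 was -47.2% of control in experiment 1 and 12.7% in experiment 2, so in experiment 2 its sign turns with the scale. ETV5 fell by 2.07 with the combination (adjusted p = 0.00827) and departed by -1.48 and -0.41.

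Of the 22 MAPK feedback and immediate early genes tested, these 3 included, 8 were below and 8 above the additive value in both experiments (all genes 32.1% and 23.4%). The list median of 0.13 turned to -0.235 under the 50th percentile filter. It turned to between -0.2725 and -0.1925 without the first LY2784544 array, the first GRN163L array, the second control array or the second combination array, and was 0.3675 without the first control array. DUSP4, a phosphatase that switches off ERK, departed by 0.37 and 0.62, and SPRED2, an inhibitor of RAF activation, by -0.51 and -0.47. The list held 1 rise with LY2784544 (ETV1; all genes 0.39%) and 4 falls with the combination (ETV1, ETV4, ETV5 and IER2; all genes 2.71%).

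Several genes of mast cells, basophils and eosinophils fell with the combination. KIT, the receptor for stem cell factor, was at 10.29 and 10.28 in control, 11.12 and 10.58 under LY2784544, 9.88 and 10.47 under GRN163L, and 7.42 and 8.69 under both agents. It fell by 2.23 against control (limma adjusted p = 0.0241), its combination arrays lay below all others, and its departures were -3.29 and -2.08. PRG2, the major basic protein of eosinophil granules, was at 9.84 and 9.99 in control, 10.06 and 9.44 under LY2784544, 9.41 and 9.63 under GRN163L, and 6.81 and 7.12 under both agents. The 6 other arrays of PRG2 overlapped, from 9.41 to 10.06, and both combination arrays lay more than 2 log2 units below them.

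PRG2 fell by 2.95 with the combination against control (limma adjusted p = 0.00119), with departures of -2.82 and -1.96. CPA3, the carboxypeptidase of mast cell granules, was at 10.25 and 9.89 in control, 9.87 and 9.19 under LY2784544, 9.35 and 10.25 under GRN163L, and 7.08 and 7.88 under both agents. It fell by 2.59 (adjusted p = 0.0123) and departed by -1.89 and -1.67. HPGDS, the prostaglandin D2 synthase of mast cells, departed by -1.37 and -1.20, and HDC, which makes histamine, by -0.73 and -0.54. Of 9 genes of the list tested, 8 were below the additive value in both experiments (all genes 32.1%), and 5 fell with the combination (all genes 2.71%): PRG2, CPA3, KIT, HPGDS and IL1RL1. The median departure of the list was -0.635. It was -1.41 without the first GRN163L array, -1.0 without the second LY2784544 array and -1.075 without the second combination array. It was smaller, at -0.45, without the first LY2784544 array, and at -0.33 with no filter on dim signals. The list's median change was -0.09 with LY2784544, -0.11 with GRN163L and -2.19 with the combination. CMA1, CLC, EPX, RNASE2 and IL5RA, which mark mature cells of these kinds, were under the filter, and GATA2, a factor of their progenitors, departed by -0.28 in both experiments. ALOX5, the leukotriene-forming lipoxygenase, is no member of the list and had the same course: it fell by 1.75 with the combination (adjusted p = 0.0423) and departed by -1.81 and -2.21.

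CD34, a marker of blood progenitors, had another order of arms. It was at 7.41 and 7.13 in control, 8.64 and 8.79 under LY2784544, 5.75 and 6.43 under GRN163L, and 5.89 and 6.73 under both agents. GRN163L and combination arrays overlapped and lay below control, and LY2784544 arrays lay above it, while only the difference of the combination from LY2784544 passed the test (-2.41, limma adjusted p = 0.0251). Its departures were -1.09 and -1.36.

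The integrated stress response is the program by which cells short of amino acids, or with stressed mitochondria or endoplasmic reticulum, make the transcription factor ATF4. ATF4 induces enzymes of serine and asparagine synthesis, amino acid transporters, aminoacyl-tRNA synthetases and regulators such as CHAC1, a glutathione-degrading enzyme, and SESN2 and DDIT4, which restrain mTORC1. ATF4 and its C/EBP partners bind a composite element whose core reads TGATGNAA. To show the control regions of genes that departed together, windows from 250 bases before the gene start to the start itself were searched on both strands for TGATGNAA, with the letters in capitals marking the match or its reverse complement. Promoters are those of RefSeq on GRCh38.p14: ASNS at chr7:97872441-97872504 (minus strand), CHAC1 at chr15:40953234-40953297 (plus strand), JDP2 at chr14:75427978-75428021 (plus strand) and AARS1 at chr16:70289658-70289721 (minus strand).
ASNS: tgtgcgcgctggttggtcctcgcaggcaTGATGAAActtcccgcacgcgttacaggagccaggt
CHAC1: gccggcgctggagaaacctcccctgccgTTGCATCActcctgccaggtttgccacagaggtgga
JDP2: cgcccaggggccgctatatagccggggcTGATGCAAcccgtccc
AARS1: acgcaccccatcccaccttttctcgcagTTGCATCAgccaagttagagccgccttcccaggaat

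These letters stand in 9 of the 70 RefSeq promoters of the 3 lists described next (12.9%) and in 1104 of 35116 promoters of all genes (3.14%). The 9 promoters belong to 9 of the 45 list genes with an entry: those printed above and ATF3, CEBPG, GARS1, IARS1 and SLC1A5. The lists hold kinds of genes known to be induced by ATF4, so a higher share can follow from their choice and tests nothing about the departures. A match describes the letters of the window and shows no binding, and genes without one may hold the element elsewhere.

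In the median the stress response regulators lay above control with either agent alone, and nearer to control with both. The amino acid genes and aminoacyl-tRNA synthetases had combination medians little below those of GRN163L alone (0.43 against 0.45, and 0.17 against 0.21). In experiment 1 their combination medians were no lower than those of GRN163L. ASNS, the asparagine synthetase, was at 7.54 and 6.69 in control, 9.14 and 8.45 under LY2784544, 8.11 and 8.59 under GRN163L, and 8.28 and 7.87 under both agents. All 6 treated arrays lay above both control arrays, and the combination was no higher than the higher single agent in either experiment, so that ASNS departed by -1.43 and -2.48 (mean -1.96, SE 0.47, limma adjusted p = 0.731). CHAC1 was at 9.05 and 9.21 in control, 10.53 and 10.40 under LY2784544, 9.43 and 9.88 under GRN163L, and 9.82 and 9.83 under both agents. It rose with LY2784544 (1.34, adjusted p = 0.0143), its combination arrays lay between those of LY2784544 and control, and it departed by -1.09 and -1.24.

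DDIT4 was at 8.96 and 8.17 in control, 9.43 and 9.49 under LY2784544, 9.57 and 9.45 under GRN163L, and 8.64 and 8.74 under both agents. Its combination arrays overlapped the range of control, below all 4 arrays of the single agents, with departures of -1.40 and -2.03. JDP2, a repressor of the AP-1 family, rose with LY2784544 (1.12, limma adjusted p = 0.0294) and with the combination (0.96, adjusted p = 0.0342) and departed by -0.87 and -1.11. SESN2 rose with LY2784544 (1.30, adjusted p = 0.0362) and departed by -1.18 and -1.45. ATF4 itself departed by -0.32 and -0.23, DDIT3 by -0.74 and -0.91, TRIB3 by -1.42 and -0.73, and CEBPB by -0.86 and -1.14.

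Of the 14 stress response regulators tested, 13 were below the additive value in both experiments (all genes 32.1%) and 0 above (23.4%), and the list median was -0.87 in experiment 1 and -0.77 in experiment 2 (all genes -0.05 and -0.03). The median change was 0.51 with LY2784544, 0.46 with GRN163L and 0.11 with the combination. Called rises were 3 with LY2784544 (CHAC1, SESN2 and JDP2; all genes 0.39%) and 1 with the combination (JDP2; all genes 0.756%). VLDLR was the member that differed between experiments in sign (0.76 and -0.18).

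The enzymes and transporters that ATF4 induces had median changes of 0.61 with LY2784544, 0.45 with GRN163L and 0.43 with the combination. Of 20 tested, 18 were below the additive value in both experiments and 1, ALDH1L2 of mitochondrial folate metabolism (0.78 and 0.54), above it (all genes 32.1% and 23.4%), with list medians of -0.66 and -0.63. SLC7A11, the cystine importer, was at 8.85 and 8.83 in control, 10.29 and 9.95 under LY2784544, 9.66 and 10.19 under GRN163L, and 10.13 and 10.29 under both agents. The 6 treated arrays overlapped each other and all lay above control. SLC7A11 rose with LY2784544 (1.28, limma adjusted p = 0.0268) and with the combination (1.37, adjusted p = 0.0155), and its departures were -0.97 and -1.02.

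SLC6A9, a glycine transporter, also rose with LY2784544 (1.60, limma adjusted p = 0.00458) and with the combination (1.26, adjusted p = 0.00772), with departures of -0.79 and -0.97. PSAT1 of serine synthesis rose with LY2784544 (1.37, adjusted p = 0.0472) and departed by -1.03 and -1.94. PHGDH, the first enzyme of that path, departed by -0.86 and -2.04, and CBS of the transsulphuration path by -0.90 and -2.70, with no change against control passing the test. ALDH18A1 of proline synthesis fell with the combination (-0.97, adjusted p = 0.0456).

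Of 19 cytosolic aminoacyl-tRNA synthetases tested, which load tRNAs with amino acids, 15 were below the additive value in both experiments and 1, RARS1 (0.44 and 0.16), above it (all genes 32.1% and 23.4%), with list medians of -0.28 and -0.45. None was called against control in any arm. WARS1, the tryptophanyl enzyme, was at 9.74 and 9.31 in control, 11.36 and 10.54 under LY2784544, 10.84 and 10.94 under GRN163L, and 11.17 and 10.38 under both agents. Its treated arrays overlapped each other above control, and it departed by -1.29 and -1.79. AARS1 departed by -0.66 and -0.81, MARS1 by -0.75 and -0.63 and CARS1 by -0.53 and -1.05. The members of these 3 lists share regulators and are not independent of each other. Some stress genes also differed between the control arrays, with ASNS at 7.54 and 6.69 and DDIT4 at 8.96 and 8.17, and the part of this difference in their departures was not tested.

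**Figure D3:**
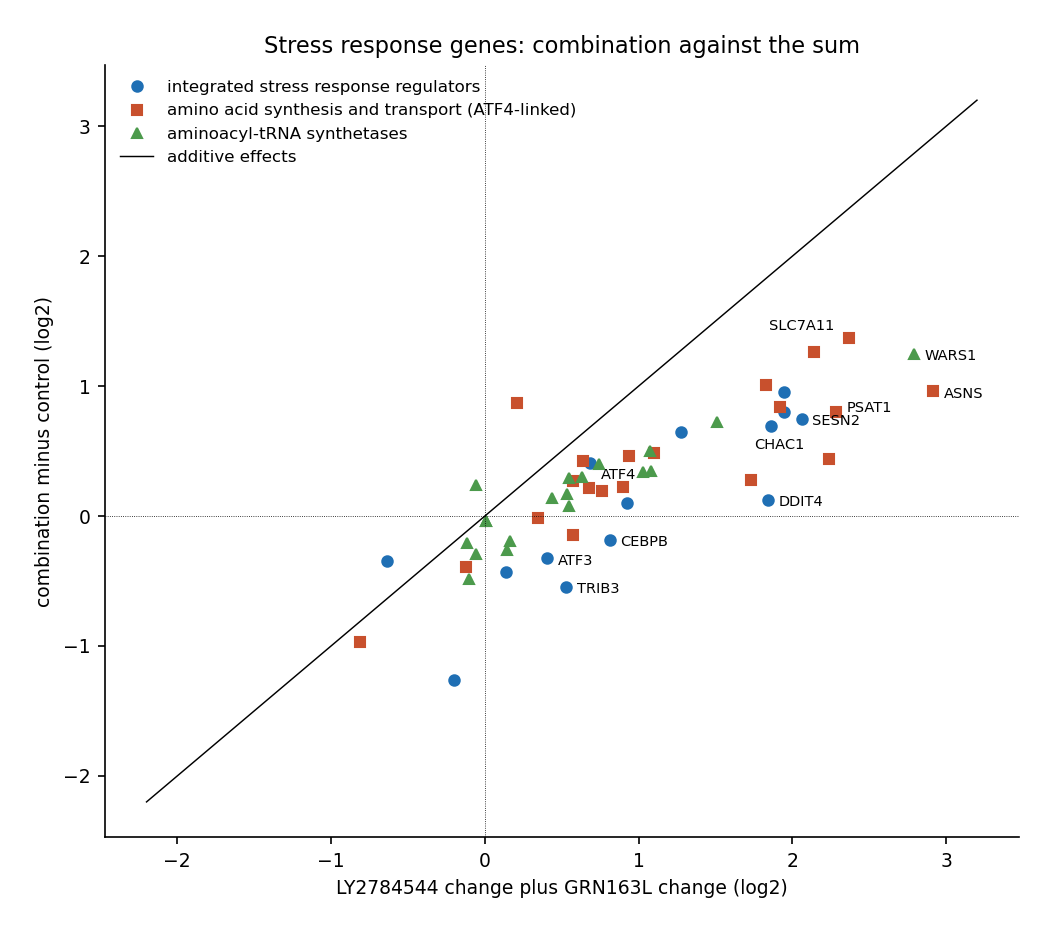
Mean change with the combination against control (vertical, log2) against the sum of the mean changes with LY2784544 and GRN163L (horizontal, log2), for the 14 stress response regulators, 20 amino acid genes and 19 aminoacyl-tRNA synthetases tested. The line marks additive effects. Most points lie below the line, farthest at the right, where ASNS has a sum of 2.92 and a combination value of 0.96. Both axes contain the same control arrays.

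Metallothioneins bind zinc and copper and are induced by both through the factor MTF1. MT1G was at 8.98 and 8.56 in control, 7.02 and 7.47 under LY2784544, 7.05 and 7.01 under GRN163L, and 6.92 and 7.48 under both agents. The 6 treated arrays overlapped and lay below both control arrays. MT1G fell with LY2784544 (-1.53, limma adjusted p = 0.0251) and with the combination (-1.57, adjusted p = 0.0169), and its departures were 1.83 and 1.56.

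MT1E fell with LY2784544 (-1.80, limma adjusted p = 0.0263) and with the combination (-1.53, adjusted p = 0.0323) and departed by 1.35 and 1.58. The additive value of MT1E lay under the filter level in both experiments, and the part of the array's lower limit was not tested. MT1X fell with the combination (-1.50, adjusted p = 0.0210) and departed by 1.0 and 1.45, and MT2A fell with it (-1.45, adjusted p = 0.0344) and departed by 0.40 and 1.06. Of the 13 metallothionein and zinc transporter genes tested, 7 were above the additive value in both experiments and 3 below (all genes 23.4% and 32.1%), all 3 of them zinc transporters (SLC30A10, SLC39A8 and SLC39A14). The list median of 0.32 was 0.055 under the 50th percentile filter and 0.12 without the second GRN163L array. The family is nearly identical in sequence, so probe sets of its members may share transcripts and were not taken as independent.

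Genes of the NF-kB pathway also lay above the additive value. TNFRSF9, a costimulatory receptor of the TNF family, was at 6.26 and 6.48 in control, 4.57 and 4.72 under LY2784544, 5.0 and 5.16 under GRN163L, and 4.31 and 4.40 under both agents. All 6 treated arrays lay more than 1 log2 unit below control, and the combination arrays lay lowest, near the filter level. TNFRSF9 fell with LY2784544 (-1.73, limma adjusted p = 0.00371) and with the combination (-2.02, adjusted p = 0.00119), and departed by 1.0 in both experiments. BCL3, an IkB-like nuclear protein, changed by -2.34 with LY2784544 (adjusted p = 0.00234) and by -2.56 with both (adjusted p = 0.000477), with departures of 0.68 and 1.13. Of 16 genes of the list tested, 9 were above the additive value in both experiments (all genes 23.4%) and 0 below (32.1%). The list median of 0.29 was 0.0475 without the second GRN163L array and 0.4525 without the first. NCAM1, an adhesion molecule, is no member: it fell by 1.48 with LY2784544 (adjusted p = 0.00886) and by 1.05 with both (adjusted p = 0.0213), and departed by 1.23 and 1.82.

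For other genes above the additive value the combination lay higher than LY2784544 alone. VGLL3, a cofactor of TEAD transcription factors, was at 6.93 and 6.96 in control, 5.56 and 5.76 under LY2784544, 7.20 and 7.30 under GRN163L, and 7.28 and 7.46 under both agents. Both LY2784544 arrays lay more than 1 log2 unit below the 6 others. VGLL3 fell with LY2784544 (-1.29, limma adjusted p = 0.00955) and was higher with the combination than with LY2784544 (1.71, adjusted p = 0.00327), with departures of 1.45 and 1.36.

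SEPTIN10, of the septin family of filament-forming GTPases, was at 6.11 and 6.25 in control, 4.09 and 3.42 under LY2784544, 6.28 and 6.18 under GRN163L, and 5.42 and 5.64 under both agents. It fell with LY2784544 (-2.43, limma adjusted p = 0.00371) and was 1.78 higher with the combination than with LY2784544 (adjusted p = 0.0251), between that agent and control (departures 1.16 and 2.29). RAB3C, a GTPase of secretory vesicles, was 1.38 higher with the combination than with LY2784544 (adjusted p = 0.0251) and departed by 1.11 and 1.34. ZNF704, a zinc finger protein, fell by 1.43 with LY2784544 (adjusted p = 0.00865) and departed by 0.90 and 1.16. TUBB4A, a tubulin, was at 9.54 and 9.57 in control, 8.69 and 8.85 with LY2784544 and 10.25 and 9.91 with the combination, which was higher than LY2784544 (adjusted p = 0.0251).

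Of 22 megakaryocyte and platelet genes tested, 12 were above the additive value in both experiments (all genes 23.4%) and 1, GP5, below it (32.1%), with list medians of 0.26 and 0.19. The median of the mean departures, 0.20, was 0.11 without the first LY2784544 array, 0.33 without the first combination array and 0.335 without the second control array. PF4, a platelet chemokine, was at 6.11 and 6.27 in control, 7.05 and 7.53 under LY2784544, 6.01 and 6.08 under GRN163L, and 7.69 and 8.52 under both agents. It rose with the combination (1.92, limma adjusted p = 0.0123), whose arrays lay above all others, and departed by 0.74 and 1.18. PPBP, another platelet chemokine, rose by 2.52 with LY2784544 (adjusted p = 0.00371) and by 3.14 with both (adjusted p = 0.00119), with departures of 1.08 and 0.19. MMRN1, a platelet granule protein, rose with the combination (0.87, adjusted p = 0.0383) and departed by 0.67 and 0.47. GP1BA, a subunit of the von Willebrand factor receptor, departed by 0.74 and 1.03, and TREML1, a platelet receptor, by 1.42 and 1.44, with no call against control.

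Several large responses were near additive. SOCS3, the feedback inhibitor of JAK signalling, was at 8.29 and 8.41 in control, 7.35 and 7.10 under LY2784544, 7.02 and 6.85 under GRN163L, and 5.23 and 5.58 under both agents. The arms did not overlap, and the fall of 2.95 with both agents (limma adjusted p = 0.000477) stood against a sum of -2.54, with departures of -0.85 and 0.04. GSDME, a pore-forming gasdermin, fell by 3.49 with both (adjusted p = 0.000477) and departed by -0.67 and 0.28. LYVE1, a hyaluronan receptor, rose by 3.04 with both (adjusted p = 0.00379) and departed by -0.02 and -0.35.

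Of 18 JAK-STAT targets tested, 8 were below and 3 above the additive value in both experiments (all genes 32.1% and 23.4%), with a list median of -0.12 that ran from -0.21 to -0.055 when 1 array was left out. PIM1, a survival kinase, fell by 1.32 with the combination (limma adjusted p = 0.00696) and departed by -0.42 and -0.39, and IRF1, an interferon-responsive factor, departed by -0.79 and -0.74. The 26 hypoxia and glycolysis genes had medians of -0.73 with LY2784544, -0.25 with GRN163L and -0.92 with the combination, where 11 fell (all genes 2.71%). Their median departure of 0.03 ran from -0.13 (without the first LY2784544 array) to 0.215 (without the second), so it has no settled sign. BNIP3, a mitophagy receptor, departed by 0.98 and 0.68, and HK2, a hexokinase, by -0.85 and -0.57. JAK2, the kinase that LY2784544 blocks, departed by 0.55 and -0.30, TERT, the catalytic subunit of telomerase, by 0.35 and 0.42, and TERC, its RNA template, by -1.19 and -0.24. TERC fell with the combination (-1.23, adjusted p = 0.0339).

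**Figure D4:**
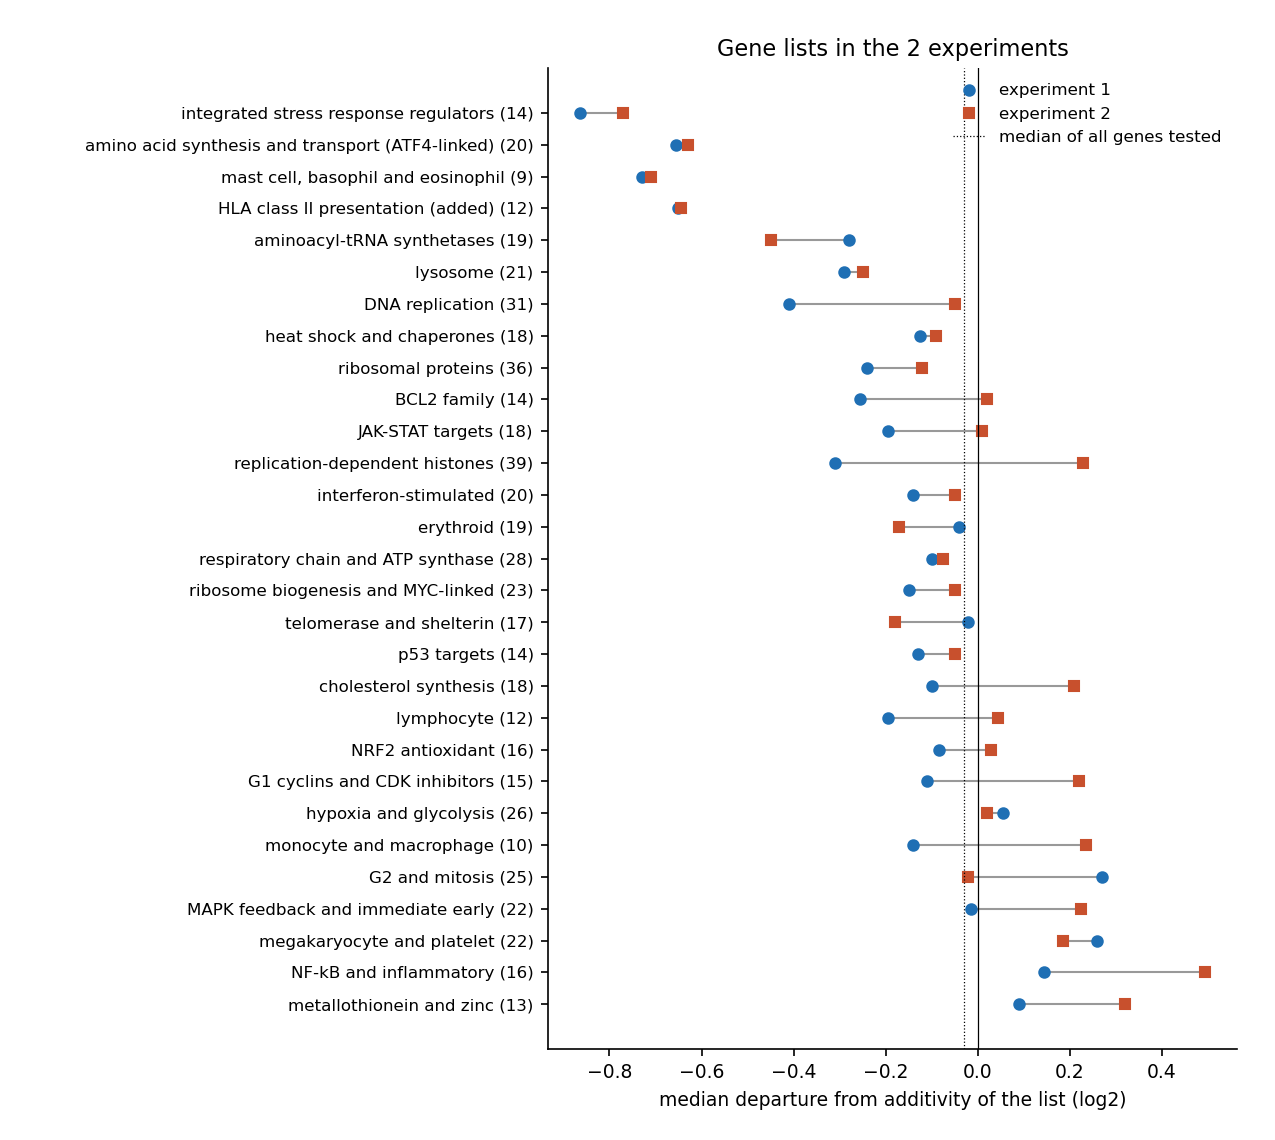
Median departure from additivity (horizontal, log2) of each gene list in experiment 1 (blue circle) and experiment 2 (orange square), with the number of genes tested in brackets and the lists in order of their median. The dotted line is the median of all genes tested, -0.03. The stress response regulators lie at -0.87 and -0.77, and the NF-kB list lies farthest to the right in experiment 2.

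Among the remaining lists, 21 lysosome genes had medians of -0.29 and -0.25, with 14 below the additive value in both experiments (all genes 32.1%) and 1 above (23.4%), led by NEU1, a sialidase (-1.10 and -0.70). The 36 ribosomal protein genes were narrow in size, with medians of -0.24 and -0.12 and 25 below in both (all genes 32.1%). The 39 replication-dependent histone genes lay at -0.31 in experiment 1 and 0.23 in experiment 2. The medians of the other lists ran from -0.22 (DNA replication) to 0.10 (G2 and mitosis). With 1 array left out these moved across 0: DNA replication from -0.54 (without the second combination array) to 0.10 (without the first), and G2 and mitosis from -0.395 (without the second combination array) to 0.57 (without the second LY2784544 array). HSPA1A, a heat-inducible HSP70, differed between experiments in size (-0.64 and -3.13) and was at 10.72 and 8.28 on the control arrays. GSTP1, a glutathione transferase, departed by -2.45 and -0.54 and fell by 2.52 with the combination (limma adjusted p = 0.0147). BMF, a BH3-only protein that promotes apoptosis, rose by 1.25 with LY2784544 (adjusted p = 0.0192), was at 4.98 and 4.84 with the combination against 4.70 and 4.98 in control, and departed by -1.36 and -0.84.

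A departure can hold no further change, so genes were also counted for which the combination lay at least 1 log2 unit beyond every other arm in both experiments. There were 21 below and 1 above, RNU4-1, a spliceosomal RNA with near-identical copies. Besides PRG2, ETV4, KIT, CPA3, SOCS3, ETV5, HLA-DRA, ALOX5 and IFI30, the 21 held FOXB1, MOB3B, OTULINL, WNT11, HBEGF, LEF1, ANXA6, STAP1, CYRIA, RAI14, ADGRG6 and MRC2. LEF1, a transcription factor of the WNT pathway, was at 9.21 and 8.92 in control, 8.89 and 8.81 under LY2784544, 8.93 and 8.98 under GRN163L, and 7.66 and 7.67 under both agents. Its 6 other arrays overlapped, from 8.81 to 9.21, the fall was -1.40 (limma adjusted p = 0.00553), and the departures were -0.95 and -1.20. ANXA6, a membrane-binding annexin, fell by 1.98 (adjusted p = 0.00696) and departed by -1.94 and -0.90. Of the 21, 19 were below the additive value on the log2 scale in both experiments and 14 on the linear scale, where SOCS3 lay above it in both (by 18.4% and 39.8% of control). The choice by a low combination value favours a negative departure, so these counts describe the genes and test nothing.

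To read departures apart from their choice, genes were ranked in one experiment and measured in the other. The 100 genes highest with LY2784544 against control in experiment 1 had, in experiment 2, medians of 0.91 with LY2784544, 0.32 with GRN163L and 0.63 with the combination, where the sum of the agents was 1.15, and 72 of 100 lay below the additive value (all genes 52.4%). Ranked in experiment 2 and read in experiment 1, the medians were 0.93, 0.01 and 0.35 against a sum of 1.01, and 76 lay below it (all genes 55.0%). The rise with LY2784544 was in both readings larger than the rise with both agents.

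The 100 genes lowest with LY2784544 gave no such pattern in experiment 2, with a median of -0.74 with the combination against a sum of -0.72, and in experiment 1 gave -0.96 against -1.33. Of genes ranked by the combination, the 100 lowest had -1.26 against a sum of -0.98 in experiment 2 and -1.57 against -1.18 in experiment 1. The 100 genes with the lowest departure in one experiment had medians of -0.995 and -0.935 in the other, with 89 and 88 below 0, and the 100 with the highest had 0.32 and 0.41, with 74 and 75 above 0. Readings across experiments carry no test, since there are 2 experiments.

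**Figure D5:**
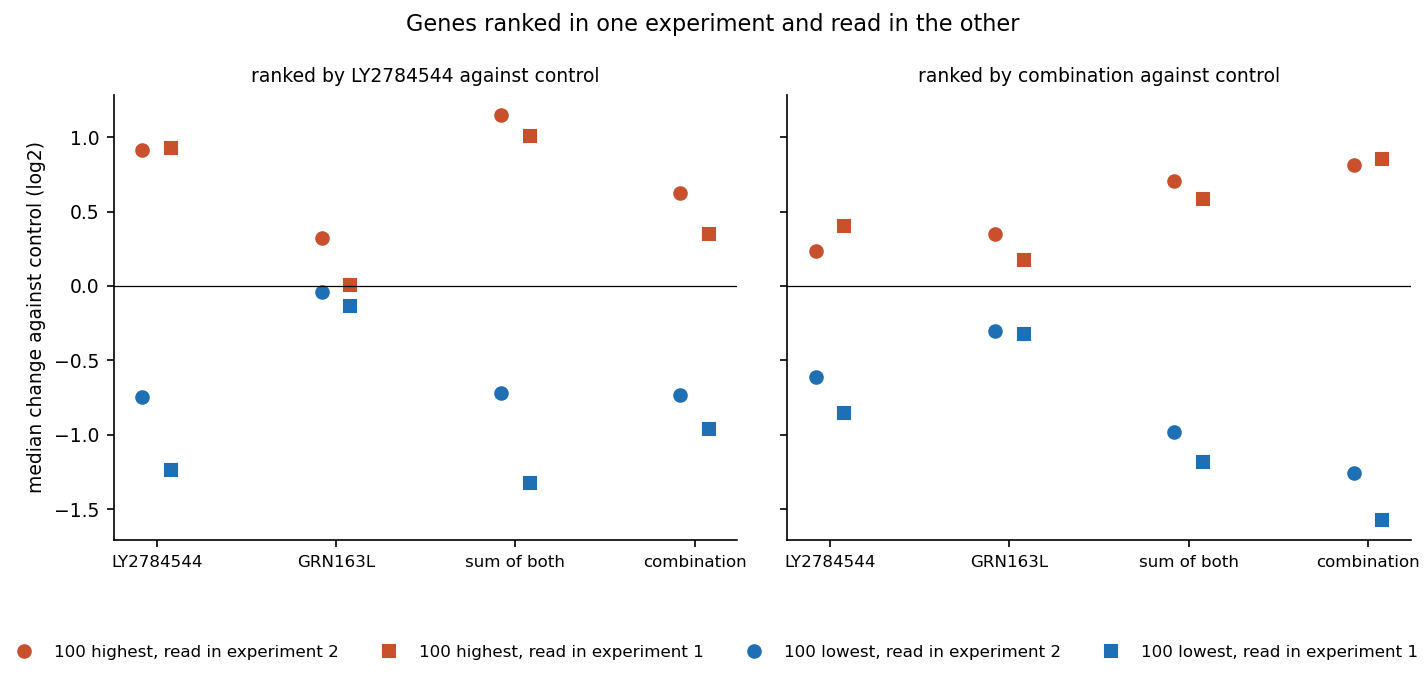
Median change against control (vertical, log2) of genes ranked in one experiment and read in the other, for LY2784544, GRN163L, the sum of both and the combination. The left panel ranks by LY2784544 against control and the right panel by the combination against control, with the 100 highest genes in orange and the 100 lowest in blue, and circles read in experiment 2 and squares in experiment 1. In the left panel the orange points of the combination (0.63 and 0.35) lie below those of the sum (1.15 and 1.01).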

How the data were processed

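Total RNA of 8 HEL cultures was amplified to sense-strand DNA and hybridised to Affymetrix arrays, per the labels' protocols. Each probe set has 1 log2 signal per array, rounded to 2 decimals, that the authors deposited after RMA (background correction, quantile normalization and summary of probes) in Affymetrix Expression Console, per the submitters' processing notes. The sources used here give neither the program's version nor a genome build. Quantile normalization forces the arrays to similar distributions, so a shift of most transcripts in 1 direction would be reduced. Array medians lay between 5.07 and 5.25, and the number of arrays limits the precision. No 2 arrays shared more than 1.90% of their values.

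Gene names came from the platform's annotation: 19181 named 1 gene, 2055 several and 12061 none. Of the 1-gene probe sets 19143 were found in RefSeq by gene number. Among 895 genes with several probe sets the brightest was used, and 5388 genes under the 30th percentile of mean signal were left out. The interaction was fitted with limma (3.58.1 in R 4.3.3) as 4 group means on 8 arrays, with two-sided Benjamini-Hochberg adjusted p over 12570 genes, 4 residual degrees of freedom and 4.65 from moderation. The script was tested on simulated data. The labels name the first or second experiment for each array, so replicate numbers pair the arrays; deviations from group means correlated within an experiment with r from 0.10 to 0.67. Alternatives were a block for the experiment, other filters, normalizations, probe set rules and moderations, a 2-fold minimum and leaving out each array in turn.

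Members and lists were chosen with earlier results of these data known, and the HLA class II list and the classes of the 79 genes after the values were seen. Named genes are, in each direction, the 10 with the smallest p of the interaction among those of 1 sign in both experiments, up to 4 of every list described, again by smallest p, JAK2, TERT and TERC, the 6 with the largest change with the combination, and the 6 farthest beyond all other arms. Genes named beyond this rule were chosen after their values were seen.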

Additional observations from a re-analysis of the deposited data

How the results depend on the processing

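The count of genes called stayed at 0 under every alternative but 1: leaving out 1 array at a time gave from 0 to 8 calls, and the 8 came without LY2784544 replicate 2, whose lone partner array is then assumed to vary like the other groups. With the replicate block, which pairs the arrays of an experiment, 0 genes were called and the smallest limma adjusted p fell from 0.120 to 0.0598, with 258 genes above and 484 below at an unadjusted p below 0.05. The block changed no call of the departure. Adjusted p-values of the other comparisons come from the limma fit without the block, and their calls were not compared between both fits. Without the block but on probe sets one by one the smallest adjusted p was 0.0529. Of the 146 genes named by the rule, the 20 of smallest p (10 above and 10 below) kept their sign under every setting run for them (the 50th percentile filter kept 12 of them). Signs turned for genes near 0. Median normalization, with or without the replicate block (the former chosen after seeing the data), set IL2RB at 0.0825 in place of -0.005. Leaving out 1 array at a time gave ranges across 0 for ANGPT2 (-0.665 to 0.265), BUB1 (-0.02 to 0.82), CCND2 (-0.795 to 0.005), CDKN1A (-0.91 to 0.05), GSDME (-0.45 to 0.06), IL2RB (-0.44 to 0.43), JAK2 (-0.265 to 0.515), LINC00965 (-1.21 to 0.29), LYVE1 (-0.63 to 0.26), OR2AT4 (-0.175 to 1.005), OR51E1 (-0.215 to 1.315) and S100A9 (-0.005 to 0.475); the cause was not tested. The differences of array medians give a departure of -0.0875 over the tested genes, so values within about 0.1 of 0 depend on the scaling. List medians moved by more than that when 1 array was left out, up to a range of -0.395 to 0.57 for G2 and mitosis, while that of the stress response regulators ran from -1.17 to -0.82.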

Other observations

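Probe sets outside the 1-gene annotation were read the same way. Of 2055 probe sets annotated to several genes, 11 lay at least 1 log2 unit below and 1 at least 1 unit above the additive value in both experiments. Together these were 0.584%, or 0.740% of those above the filter level. Of 12061 probe sets that the annotation does not list, 49 lay below and 47 above by that size. This is 0.796%, or 1.19% of those above the filter level, more than the 0.628% of the genes tested. Their departures correlated between experiments with r = 0.05, and with r = 0.08 above the filter level. These are unnamed here and were not tested.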
